A study of Gorilla gorilla gorilla with 13 samples.

Results

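Regulators of the G1 phase of the cell cycle were followed across 4 sorted populations of gorilla cerebral organoids. The 10 genes were chosen by name: the D-type cyclins CCND1, CCND2 and CCND3, their kinases CDK4 and CDK6, the inhibitors of the CIP/KIP family CDKN1A, CDKN1B and CDKN1C, and the inhibitors of the INK4 family CDKN2C and CDKN2D. All 10 are rows of the hg38 count table, which lists 18137 genes, and all 10 were among the 16804 genes that passed the filter on low counts. Cerebral organoids are 3-dimensional cultures of brain tissue, here from 1 gorilla induced pluripotent stem cell line (GC1), untreated and harvested at week 8 of culture within 3 days. The sort gave 4 libraries of apical radial glia (aRG), 4 of basal radial glia (bRG), 3 of basal intermediate progenitors (bIP) and 2 of neurons positive for BCL11B (N), each made from RNA of 10000 cells. The labels do not tell whether the libraries of 1 population stem from different cultures. The p-values therefore describe only how these 13 libraries scatter, and that scatter may be technical.

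D-type cyclins bind CDK4 or CDK6 in G1, and the active kinase phosphorylates the retinoblastoma protein, which releases E2F transcription factors and lets the cell enter S phase. INK4 proteins bind CDK4 and CDK6 themselves and keep cyclin D off, whereas CIP/KIP proteins bind cyclin-kinase complexes, including those of CDK2. In the developing cortex, radial glia are the cycling stem cells, intermediate progenitors are their committed daughters, and neurons have left the cycle.

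Total counts per library lay between 5464721 and 12524938 in the hg38 table. Levels are given as CPM, the count scaled to a common library size, with TMM factors, and differences as log2 fold changes from edgeR's quasi-likelihood test fitted over all libraries, called at a Benjamini-Hochberg adjusted p under 0.05. Counts are not divided by transcript length, so levels are compared between populations and not between genes. The 10 radial glia markers summed to between 2544 and 4400.3 CPM in the radial glia libraries and between 129 and 174 CPM in bIP and N, and the 10 neuron markers to 4499 to 4964 CPM in bIP and 6944 to 7134 CPM in N. EOMES, a transcription factor typical of intermediate progenitors, stood at 85.3 ± 49.1 CPM in the bIP libraries and at 367 ± 92.9 CPM in those of bRG (± is the SD over the libraries of a population throughout). The 8 markers of intermediate progenitors, EOMES among them, summed to 504 to 926 CPM in bIP and 807 to 1069 CPM in bRG, which overlap; edgeR called 3 of the 8 lower and 1 higher in bIP against bRG. Against bRG, the label of the bIP sort is thus not borne out by EOMES, and the summed list does not set bIP above bRG. In N, EOMES stood below bIP, at 6.26 ± 0.677 CPM. Of the 8 markers, edgeR called 1 lower and 0 higher in N against bIP. Their sum in N, 706 to 809 CPM, lay within the range of bIP. The 8 Cajal-Retzius markers (genes of an early-born cortical neuron) summed to 1377 to 3558 CPM in bIP and 63.0 to 127 CPM in radial glia, and the part of such cells in the bIP values below was not tested. MKI67, a marker of cycling cells, measured 1021 ± 319 CPM in aRG, 321 ± 94.5 in bRG, 14.0 ± 8.94 in bIP and 13.5 ± 2.13 in N. Of the 15 G2/M genes summed, bIP libraries held 150.3 to 197 CPM and N libraries 158 to 159.9 CPM, against 1153 to 1860.5 CPM in bRG and 3779.6 to 7719 CPM in aRG. The bRG library 3 stood apart, with the fewest genes detected (16534) and the lowest scaling factor (0.804). In bulk RNA, fewer cells of a type and less RNA per cell cannot be told apart.

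Of the 10 genes, 6 differed among the 4 populations by edgeR (CCND1, CCND2, CDK6, CDKN1A, CDKN2C and CDKN2D), where 22.5% of all genes tested did. Between bRG and aRG edgeR called none of the 10, against 1.26% of all genes (0.0298% higher and 1.23% lower). In that comparison 4 of the 10 had an unadjusted p under 0.05, DESeq2 called 1 and limma with quality weights called 0. In bIP against aRG, where 18.4% of all genes were called, 4 of 10 were lower (9.98% of all genes were) and 0 higher (8.47%). In bIP against bRG, where 16.7% of all genes were called, 4 were lower (8.44% of all genes) and 1 was higher (8.25%). In N against bRG, where 19.8% of all genes were called, 4 were lower (9.13%) and 1 was higher (10.6%). In N against aRG, where 19.8% were called, 4 were lower (9.37%) and 1 was higher (10.4%). Between N and bIP edgeR called none, against 0.113% of all genes; 2 of the 10 had an unadjusted p under 0.05, DESeq2 called 1 and limma with quality weights 0. The median log2 fold change of the 10 was -0.36 in bRG against aRG (0.04 over all genes tested), -0.53 in bIP against aRG (-0.04), -0.56 in bIP against bRG (-0.09), 0.12 in N against bIP (0.07), -0.99 in N against bRG (-0.09) and -0.79 in N against aRG (-0.05). Comparisons with a population in common share its libraries and are not independent.

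**Figure D1:**
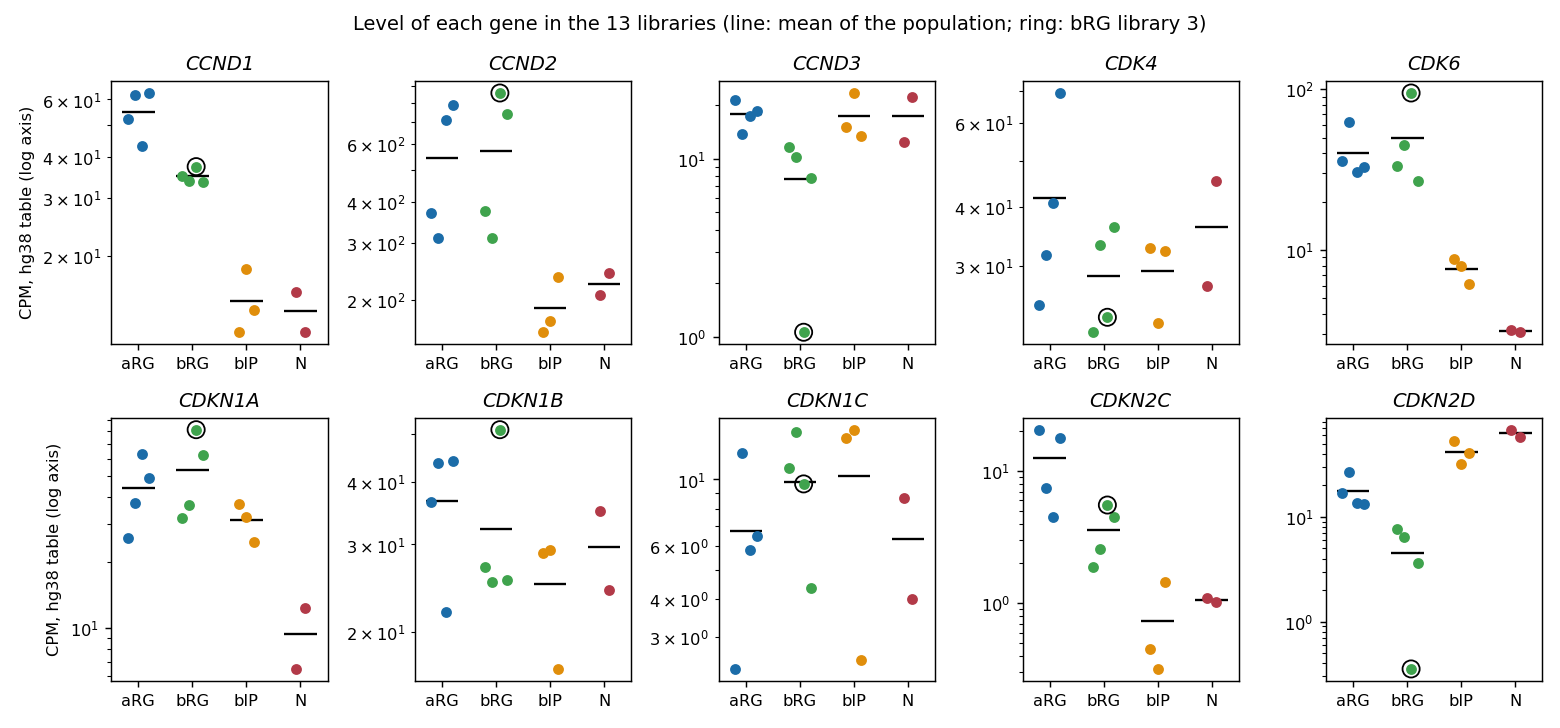
CPM in the hg38 table (log axis, a range of its own for each gene) of the 10 genes in each of the 13 libraries, by population. Horizontal lines are population means and the ring marks bRG library 3. CCND1, CCND2, CDK6 and CDKN2C lie lower in bIP and N than in radial glia, and CDKN2D lies higher.

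CCND1 and CCND2 were lower in bIP and N than in radial glia, and CCND3 was not called in any comparison. CCND1, the D-type cyclin induced by many growth signals, measured 52.4, 61.9, 43.3 and 62.8 CPM in aRG libraries 1 to 4. It measured 35.0, 33.8, 37.5 and 33.6 CPM in bRG libraries 1 to 4. The bRG libraries lay close together, and each was below each aRG library. In bIP libraries 1 to 3 CCND1 measured 11.8, 18.3 and 13.8 CPM, and in N library 1 and the unnumbered neuron library 15.6 and 11.8 CPM. These 5 libraries overlapped one another and lay below all radial glia libraries. The log2 fold change was -1.91 in bIP against aRG (SE 0.279, edgeR adjusted p = 7.05e-05) and -1.25 in bIP against bRG (SE 0.273, edgeR adjusted p = 0.00335). It was -2.01 in N against aRG (edgeR adjusted p = 0.000209) and -1.36 in N against bRG (edgeR adjusted p = 0.0052). The order of means was thus aRG, bRG, bIP, N. The first step, bRG against aRG, was -0.66 and was not called (SE 0.243, edgeR adjusted p = 0.344, 95% interval -1.17 to -0.14 before adjustment), and neither was the last, N against bIP (-0.10, 95% interval -0.78 to 0.57). The call of N against bRG ended without the unnumbered neuron library (edgeR adjusted p = 0.108), and with a term for libraries numbered 1 and 2 against 3 and 4, which also leaves that library out (0.0767).

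Beside the lower CCND1 level of bRG than of aRG, other markers moved too. Summed G2/M markers did not overlap between the groups (above), and 14 of 15 were called lower in bRG, where 1.23% of all genes were. The 9 choroid plexus and hem markers summed to 1618 to 7856 CPM in aRG and 231 to 1307 CPM in bRG, with 1 of 9 called lower. Most of this sum was TTR, at 4512 ± 2535 CPM in aRG and 628 ± 423 in bRG. The means of RSPO2, LMX1A and KCNE2 were higher in bRG. The 7 mesenchyme markers summed to 160.3 to 385 CPM in aRG and 110.5 to 145 CPM in bRG, with 1 of 7 called. No marker of these lists was at 0 in all libraries of a population, and their part in the differences between bRG and aRG was not tested.

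CCND2, a D-type cyclin whose transcript is known to be carried into the basal processes of radial glia, measured 369.6, 310.3, 712 and 791 CPM in aRG libraries 1 to 4. In bRG libraries 1 to 4 it measured 375, 309.6, 859 and 741 CPM. Libraries 1 and 2 were low and libraries 3 and 4 high in both populations. CCND2 measured 159.6, 172 and 236 CPM in bIP libraries 1 to 3, and 208 and 242 CPM in N library 1 and the unnumbered neuron library. No bIP or N library reached the lowest radial glia library. The log2 fold change was -1.53 in bIP against aRG (SE 0.385, edgeR adjusted p = 0.00856) and -1.59 in bIP against bRG (SE 0.386, edgeR adjusted p = 0.00738). It was -1.35 in N against bRG (edgeR adjusted p = 0.0407) and -1.28 in N against aRG, which missed the threshold (edgeR adjusted p = 0.0506). In bRG against aRG it was 0.07 (95% interval -0.65 to 0.78). In order of means bRG stood above aRG, then N and bIP, and neither the first pair nor the last differed by a call (N against bIP 0.25, 95% interval -0.67 to 1.17).

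Several of these CCND2 calls lay near the threshold. Without bIP library 1 the adjusted p of bIP against aRG was 0.0521. The call of N against bRG ended without bRG library 3 or 4 (edgeR adjusted p = 0.0613 and 0.087), bIP library 1 or 2 (0.0526 and 0.053), N library 1 (0.225) or the unnumbered neuron library (0.17). N against aRG became a call without aRG library 1 or 2 (edgeR adjusted p = 0.0401 and 0.0263) and without bRG library 1, 2 or 3 (0.0498, 0.0309 and 0.0243). DESeq2 called it too (adjusted p = 0.0136). In N against bRG the edgeR adjusted p was 0.14 with a term for library numbers and 0.0672 with only the 2 populations fitted. There limma with quality weights gave an adjusted p of 0.065, and DESeq2 made the call (adjusted p = 0.00832). In N against aRG, the fit of only the 2 populations (edgeR adjusted p = 0.0196) and limma with quality weights (adjusted p = 0.0154) both gave a call. The gorGor6 table holds only 352 CCND2 counts over all libraries, against 48989 in the hg38 table. CCND2 was not called there in bIP against bRG (-0.92, edgeR adjusted p = 0.678), but with so few counts that fit says little about the call.

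**Figure D2:**
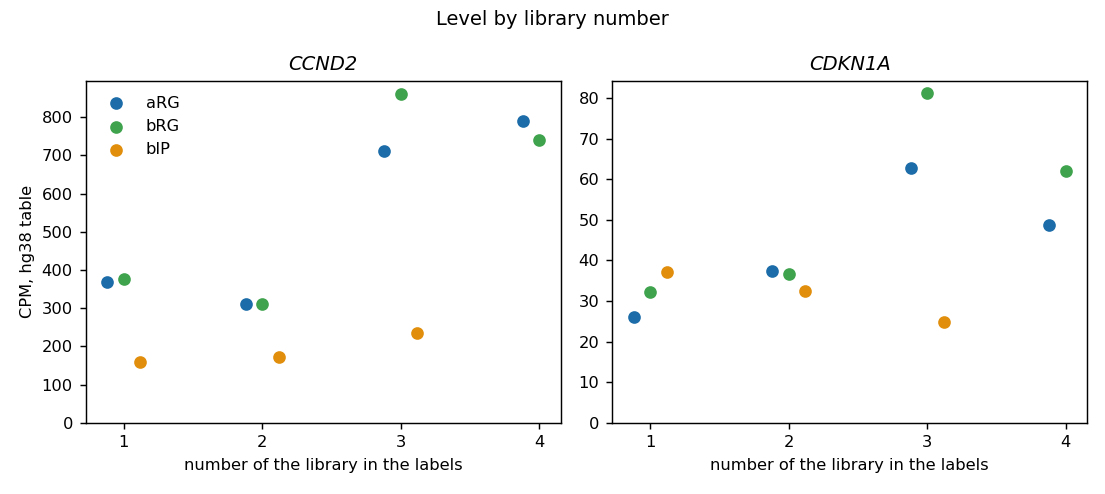
CPM in the hg38 table of CCND2 and CDKN1A against the number that the labels give each library, for aRG, bRG and bIP; each point is 1 library. Radial glia libraries 3 and 4 lie above libraries 1 and 2 for both genes, and bIP library 3 does so only for CCND2.

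Levels of CCND2 and CDKN1A in radial glia also differed by library number. The mean CCND2 level of libraries 3 and 4 exceeded that of libraries 1 and 2 by 1.14 on the log2 scale in aRG and by 1.23 in bRG, without overlap. For CDKN1A the same difference was 0.81 in aRG and 1.06 in bRG, again without overlap. CDK4 differed by 0.97 in aRG and by 0.12 in bRG, where the libraries overlapped. CDKN2D went the other way, at -0.71 in aRG and -1.83 in bRG, also without overlap. CDK6 in aRG (-0.63) was without overlap too, as were CCND3 (-1.30), CDKN1C (-0.85) and CDKN2C (1.17) in bRG. These splits set 2 libraries against 2, were not tested, and their share over all genes was not counted. Total counts were 5464721 to 7153514 in radial glia libraries 1 and 2, and 9761818 to 10551184 in libraries 3 and 4. The part of depth was not tested, and the labels do not say what a number stands for. Within libraries 1 and 2, CCND2 in bRG against aRG was 0.01 on the log2 scale, and within libraries 3 and 4 it was 0.09.

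CCND3, the third D-type cyclin, measured 13.8 to 21.3 CPM in aRG, 13.5 to 23.4 CPM in bIP, and 12.4 and 22.2 CPM in N. In bRG libraries 1, 2 and 4 it measured 11.6, 10.2 and 7.80 CPM, and in bRG library 3 it was at 1.06 CPM, from 9 counts. The bRG libraries were thus the lowest of the 13, and the other populations overlapped. Mean levels were 7.68 ± 4.69 CPM in bRG (9.89 ± 1.93 without library 3) and 17.8 ± 3.09 CPM in aRG. The log2 fold change of bRG against aRG was -1.21 and was not called (SE 0.491, edgeR adjusted p = 0.408). That of bIP against bRG was 1.18 (edgeR adjusted p = 0.141) and that of N against bRG 1.18 (edgeR adjusted p = 0.165). In bIP and N against aRG the values were -0.03 (95% interval -1.12 to 1.05) and -0.04 (-1.27 to 1.20), intervals that span a 2-fold change in either direction.

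Of the kinases, CDK6 was lower in bIP and N, and CDK4 was not called in any comparison. CDK6 measured 35.6, 62.2, 30.7 and 32.7 CPM in aRG libraries 1 to 4. It measured 33.2, 44.9, 94.8 and 26.8 CPM in bRG libraries 1 to 4, where library 3 was highest. In bIP libraries 1 to 3 it fell to 8.81, 7.95 and 6.11 CPM, and N library 1 and the unnumbered neuron library held 3.19 and 3.08 CPM. Radial glia, bIP and N libraries formed 3 ranges that did not overlap. The log2 fold change was -2.40 in bIP against aRG (SE 0.43, edgeR adjusted p = 0.00052) and -2.71 in bIP against bRG (SE 0.436, edgeR adjusted p = 0.000251). It was -3.68 in N against aRG (SE 0.554, edgeR adjusted p = 9.18e-05) and -3.99 in N against bRG (SE 0.563, edgeR adjusted p = 6.28e-05). All 4 calls held in the removal of each library and in the table counted on gorGor6. The step from bIP to N was -1.28 and was not called (SE 0.521, unadjusted p = 0.0252, edgeR adjusted p = 0.68). In bRG against aRG the value was 0.31 (95% interval -0.45 to 1.07), and it was -0.20 without bRG library 3.

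CDK4, which forms the same complexes as CDK6, measured 24.8 to 69.5 CPM in aRG, 21.7 to 36.2 CPM in bRG, 22.7 to 32.7 CPM in bIP, and 27.2 and 45.2 CPM in N. The 4 populations overlapped, and the highest level was in aRG library 4. Its log2 fold changes were -0.54 in bRG against aRG (95% interval -1.22 to 0.14), -0.52 in bIP against aRG (-1.26 to 0.23) and -0.20 in N against aRG (-1.04 to 0.64). Over the 4 populations the edgeR adjusted p was 0.528. In the RefSeq gorilla annotation (NHGRI_mGorGor1-v2.1_pri) CDK4 overlaps the protein-coding genes TSPAN31 and MARCHF9. CDK6 overlaps the protein-coding gene LOC134758810 and a gene of a small nuclear RNA. CCND2 overlaps a gene of a long noncoding RNA, and CCND3 a gene of a small nuclear RNA. These overlaps are those of the gorilla annotation, and whether they hold in the annotation behind the hg38 counts was not checked. Whether counting used strand is not given in the sources used here. How far reads of overlapping genes enter these counts is thus uncertain.

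**Figure D3:**
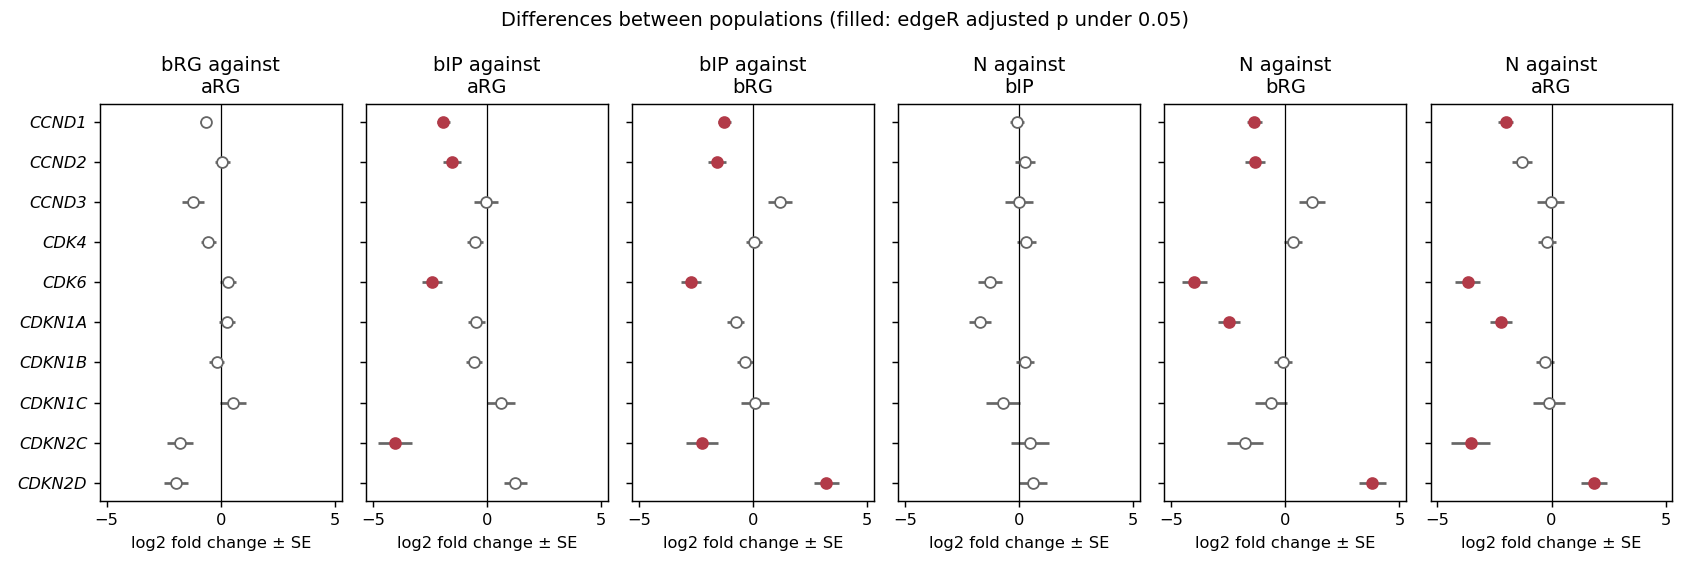
Log2 fold change (x axis) of each of the 10 genes (y axis) in the 6 comparisons; bars are the standard error and filled points were called by edgeR. No point is filled in bRG against aRG or N against bIP, and CDKN2D is the filled point on the right in 3 of the other 4 comparisons.

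Of the CIP/KIP inhibitors, CDKN1A was lower in N than in radial glia, and CDKN1B and CDKN1C were not called. CDKN1A, a target of p53 that is also induced by other stress and differentiation signals, measured 26.0, 37.4, 62.8 and 48.7 CPM in aRG libraries 1 to 4. It measured 32.1, 36.6, 81.3 and 62.1 CPM in bRG libraries 1 to 4. In bIP libraries 1 to 3 it measured 37.2, 32.4 and 24.7 CPM, within or just under the range of radial glia. The neuron libraries stood apart below all others, at 6.50 CPM in library 1 and 12.3 CPM in the unnumbered one. In N against bRG the log2 fold change was -2.49 (SE 0.479, edgeR adjusted p = 0.0011) and -2.21 in N against aRG (SE 0.472, edgeR adjusted p = 0.00226). The call of N against aRG ended without N library 1 (edgeR adjusted p = 0.0638), and in the gorGor6 table the value was -2.93. In N against bIP the value was -1.73 (SE 0.476, unadjusted p = 0.00193, edgeR adjusted p = 0.294), and DESeq2 called it (adjusted p = 0.0211). The differences of bIP from aRG (-0.48, 95% interval -1.26 to 0.30) and from bRG (-0.76, -1.55 to 0.03) were not called. Beside the level of N against bIP, the Cajal-Retzius markers summed to 255 to 281 CPM in N, below bIP, with 4 of 8 called lower in N. Most of the sum in bIP was RELN, at 2048 ± 1001 CPM in bIP and 64.1 ± 12.9 in N. The means of CALB2 and PCP4 were higher in N. The part of the 8 markers in the CDKN1A difference was not tested.

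CDKN1B, an inhibitor linked to cycle exit and to the quiescence of neurons, measured 22.0 to 44.1 CPM in aRG, 25.3 to 50.9 CPM in bRG, 16.9 to 29.3 CPM in bIP, and 34.9 and 24.3 CPM in N. All populations overlapped, and the highest value was that of bRG library 3, without which bRG held 25.9 ± 0.945 CPM. The log2 fold change of N was -0.30 against aRG (95% interval -1.13 to 0.52), -0.12 against bRG (-0.94 to 0.70) and 0.25 against bIP (-0.61 to 1.11). Over the 4 populations its edgeR adjusted p was 0.651.

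CDKN1C, an imprinted gene whose product promotes cycle exit of cortical progenitors, was measured from 13 to 138 counts per library. Its level was 2.35 to 12.3 CPM in aRG, 4.38 to 14.3 CPM in bRG, 2.52 to 14.6 CPM in bIP, and 8.70 and 4.01 CPM in N. The 4 populations overlapped, and bIP library 3 alone was at 2.52 CPM where bIP libraries 1 and 2 were at 13.7 and 14.6 CPM. In bIP against aRG the log2 fold change was 0.60 (95% interval -0.69 to 1.89) and in N against bIP -0.69 (-2.27 to 0.88). Over the 4 populations the edgeR adjusted p was 0.763, and differences of 2-fold lie inside these intervals.

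The INK4 genes CDKN2C and CDKN2D went in opposite directions between bRG and bIP. CDKN2C measured 20.6, 7.42, 4.50 and 17.9 CPM in aRG libraries 1 to 4 and 1.88, 2.56, 5.54 and 4.47 CPM in bRG libraries 1 to 4. The 2 populations overlapped, although 3 of 4 aRG libraries lay above every bRG library. Its level was 0.448, 0.318 and 1.44 CPM in bIP libraries 1 to 3, from 3, 3 and 16 counts, and 1.10 and 1.03 CPM in N library 1 and the unnumbered neuron library, from 9 and 11 counts. Every bIP and N library was below every radial glia library. The log2 fold change was -4.03 in bIP against aRG (SE 0.744, edgeR adjusted p = 0.000686), and -5.01 without bIP library 3. It was -3.55 in N against aRG (SE 0.857, edgeR adjusted p = 0.006) and -2.24 in bIP against bRG (SE 0.704, edgeR adjusted p = 0.0358). It was -1.76 in N against bRG and -1.79 in bRG against aRG, both not called (edgeR adjusted p = 0.134 and 0.245).

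Some CDKN2C calls rested on single libraries, as its counts are low. The call in bIP against bRG ended without bRG library 3 or 4 (edgeR adjusted p = 0.0581 and 0.0697), bIP library 1 or 2 (0.135 and 0.157), and its value was -3.22 without bIP library 3. It ended with only the 2 populations fitted (0.104), with limma and quality weights (0.0652) and in the gorGor6 table (0.0596). The call of N against aRG ended without N library 1 (0.0657) or the unnumbered neuron library (0.0779), and with a term for library numbers (0.0845). The call of bIP against aRG held in each removal.

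CDKN2D, the INK4 gene that is known to be expressed in postmitotic neurons, measured 16.8, 26.8, 13.4 and 13.2 CPM in aRG libraries 1 to 4. In bRG libraries 1 to 4 it measured 7.69, 6.45, 0.354 and 3.62 CPM, library 3 holding 3 counts. It measured 52.6, 31.9 and 40.4 CPM in bIP libraries 1 to 3, and 67.8 and 58.0 CPM in N library 1 and the unnumbered neuron library. The ranges of the 4 populations did not overlap, in the order bRG, aRG, bIP, N. In bIP against bRG the log2 fold change was 3.21 (SE 0.554, edgeR adjusted p = 0.000486). It was 3.81 in N against bRG (SE 0.592, edgeR adjusted p = 0.000154) and 1.84 in N against aRG (SE 0.567, edgeR adjusted p = 0.0277). The neighbours in that order were not called: bRG against aRG was -1.97 (edgeR adjusted p = 0.0891), bIP against aRG 1.25 (edgeR adjusted p = 0.114) and N against bIP 0.60 (edgeR adjusted p = 0.909). CDKN2D was the single gene of the 10 called higher in any comparison.

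Without bRG library 3 the CDKN2D value of bRG against aRG was -1.58 and was called (edgeR adjusted p = 0.0231), and that of bIP against aRG was 1.25 and was called (0.00664). DESeq2 called the first with all libraries (-1.94, adjusted p = 0.00736), and the second was called with only the 2 populations fitted (0.00816) and by limma with quality weights (0.00276). The call of N against aRG ended without aRG library 1, 3 or 4 (0.0596, 0.0739 and 0.0865), N library 1 (0.145) or the unnumbered neuron library (0.0941), and with a term for library numbers (0.146). Both calls against bRG held in each removal. Within libraries 1 and 2 the log2 ratio of bRG to aRG means was -1.63, and within libraries 3 and 4 it was -2.74. The CPM of bRG was 5.92 ± 2.09 (n = 3) without library 3.

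The balance of reads between relatives was then described in each library, with no test; these shares depend on transcript length, so only their change between populations is read. CDK6 held 32.0% to 66.4% of the CDK4 and CDK6 counts in aRG and 42.6% to 80.2% in bRG. It held 16.0% to 26.0% in bIP and 6.37% to 10.5% in N, so the kinase reads of these libraries were mostly those of CDK4. CDKN2C held 21.7% to 57.6% of the CDKN2C and CDKN2D counts in aRG and 19.6% to 94% in bRG, the highest share being that of library 3. In bIP it held 0.845% to 3.44% and in N 1.60% to 1.74%. Among D-type cyclins the share of CCND3 was 2.12% to 4.81% in aRG, 0.118% to 2.89% in bRG, 5.12% to 10.9% in bIP and 5.25% to 8.04% in N, with no overlap between radial glia and the other 2 populations. The share of CCND1 overlapped among all 4. CDKN1A held 40.1% to 69.3% of CIP/KIP counts in the radial glia and bIP libraries, and 12.96% and 30.3% in N.

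**Figure D4:**
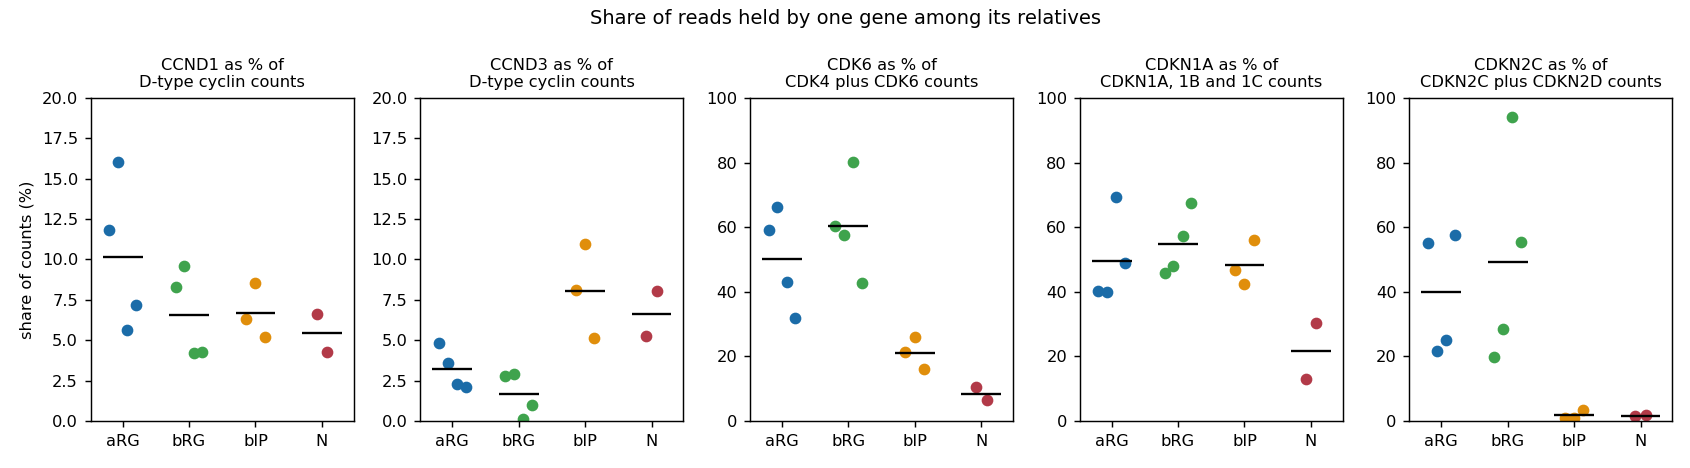
Share of counts (%) that 1 gene holds among the counts of its relatives, per library (points) with the population mean (line); the left pair of panels ends at 20%. CDK6 holds at most 26.0% and CDKN2C at most 3.44% of their pairs in the bIP and N libraries.

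Partners of these genes were described from lists of other pathway genes. Of 19 G1/S partners, 7 were called in bIP against aRG, 5 lower and 2 higher (median -0.26), against 18.4% of all genes (median -0.04). In N against aRG 7 were called, 5 lower and 2 higher (-0.65), against 19.8% (-0.05). In bIP against bRG 3 were lower and 1 higher (-0.06), against 16.7% called (-0.09), a median near that of all genes. In N against bRG 4 were lower and 2 higher (-0.39), against 19.8% called (-0.09). In bRG against aRG 2 were lower (-0.17), against 1.23% of all genes (0.04). Between N and bIP edgeR called none of the 19, with 2 at an unadjusted p under 0.05 and none by DESeq2. CDK2, the kinase of the G1 to S transition, measured 35.5 ± 14.2 CPM in aRG, 19.9 ± 8.30 in bRG, 4.43 ± 0.426 in bIP and 4.75 ± 1.34 in N. It fell by 3.00 on the log2 scale in bIP against aRG (edgeR adjusted p = 5.86e-05) and by 2.17 in bIP against bRG (edgeR adjusted p = 0.00127). CCNA2, the cyclin of S phase and G2, measured 193 ± 99.6 CPM in aRG and was already at 42.9 ± 9.83 CPM in bRG (log2 fold change -2.17, edgeR adjusted p = 0.000617), a level near the 44.5 ± 4.52 CPM of bIP. CKS1B, a cofactor of kinases and of the degradation of CDKN1B protein, was called lower in bRG against aRG too (-1.77, edgeR adjusted p = 0.00992). CDKN3, a phosphatase of cyclin-dependent kinases despite its name, went from 71.3 ± 18.9 CPM in aRG to 3.44 ± 0.538 CPM in N (-4.36, edgeR adjusted p = 2.99e-05).

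The 2 partners called higher in bIP against aRG were MYC and FBXW7, named after their values were seen. MYC, a transcription factor that drives growth, rose from 7.19 ± 2.35 to 21.9 ± 6.04 CPM (log2 fold change 1.60, edgeR adjusted p = 0.00981). FBXW7, which targets cyclin E and MYC proteins for degradation, rose from 86.0 ± 18.7 to 153 ± 7.53 CPM (0.83, edgeR adjusted p = 0.0273). Of the other INK4 genes, CDKN2A measured 1.12 ± 0.529 CPM at its highest, in bRG. CDKN2B measured 6.33 ± 4.72 CPM in bRG, where its libraries ranged from 0 to 10.3 CPM, and 0.414 ± 0.454 CPM in N. It was called lower in N against bRG (-3.96, edgeR adjusted p = 0.0367), although the libraries overlapped.

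Of 19 genes of the pocket proteins, E2F factors and the DREAM complex, which represses cell cycle genes in resting cells, 9 were called lower and 1 higher in bIP against aRG (median -0.93). Of all genes tested, 9.98% were lower and 8.47% higher there (median -0.04). In bIP against bRG 8 were lower (-1.02), in N against bRG 7 (-0.77) and in N against aRG 8 (-0.92). In bRG against aRG 1 was lower (-0.28), and none was called higher in these 4 comparisons. The shares of all genes called lower in them were 8.44%, 9.13%, 9.37% and 1.23%, with medians of -0.09, -0.09, -0.05 and 0.04. Between N and bIP edgeR called none, with 1 at an unadjusted p under 0.05 and none by DESeq2. E2F1, an activating E2F, measured 55.3 ± 18.8 CPM in aRG, 41.4 ± 11.2 in bRG, 4.53 ± 2.89 in bIP and 5.36 ± 1.25 in N. Its log2 fold change was -3.17 in bIP against bRG (edgeR adjusted p = 5.74e-05). E2F7 and E2F8, repressive E2F factors, and MYBL2, a cofactor of DREAM subunits in cycling cells, were also lower in bIP than in aRG (-3.64, -3.56 and -4.14). The gene of the 19 that edgeR called in bRG against aRG was E2F8 (-2.34, edgeR adjusted p = 0.00232), where DESeq2 called 2 and limma with quality weights 3. LIN37, a DREAM subunit named after its values were seen, was the gene called higher in bIP against aRG (1.04, edgeR adjusted p = 0.0175).

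For each of the 6 genes that differed among populations, the 3 most similar profiles were sought among the 9190 genes whose log2 CPM averaged 4 or more. The measure was the root mean square difference of log2 CPM, centred on each gene's mean, over the 13 libraries. The profiles nearest to CCND1 were those of C1orf226 (0.22), TAF8 (0.23) and CCDC77 (0.23), and to CCND2 those of CDON (0.23), SLC30A1 (0.24) and GAB1 (0.24). CDK6 was nearest to VAV3 (0.37), PARD3B (0.41) and YBX3 (0.41), and CDKN1A to KLF12 (0.31), MEST (0.34) and ERAP1 (0.37). CDKN2C was nearest to CKS2 (0.50), PHF19 (0.54) and GMNN (0.55), and CDKN2D to FAAH (0.54), SYNGR3 (0.54) and MVB12B (0.69). FAAH measured 7.23 ± 4.09 CPM in bRG, 18.6 ± 3.30 in aRG, 80.0 ± 24.8 in bIP and 105 ± 2.41 in N. It was picked for its likeness to CDKN2D over these libraries, so the shared order of means is no separate result. Among the 10 genes themselves, the closest pair was CCND1 and CCND2 (0.63). CDK4 and CDKN1B, neither of them called, were nearly as close (0.64).

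The deposited table counted on gorGor6 gave other readings for some of the 10. CCND1 was listed at 0 there in all 13 libraries, against 3623 counts in the hg38 table, so no value of it comes from gorGor6. CCND2 held 352 counts there and 48989 in the hg38 table, and its log2 fold change of bIP against aRG was -1.03 there and was not called (edgeR adjusted p = 0.675). The gorGor6 count of CDKN1A was 0.328 times its hg38 count, from 0.0755 times in N library 1 to 0.529 times in aRG library 3. The other 7 genes held 1.79 to 2.35 times their hg38 count, where the median over 11020 genes with at least 1000 hg38 counts was 1.75. In the gorGor6 table edgeR called CDK6 in all 4 comparisons in which it was called above, CDKN2D in 3, CDKN2C in bIP and N against aRG, and CDKN1A in N against bRG (-2.85, edgeR adjusted p = 0.0481) and N against aRG (-2.93, 0.0429).

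**Figure D5:**
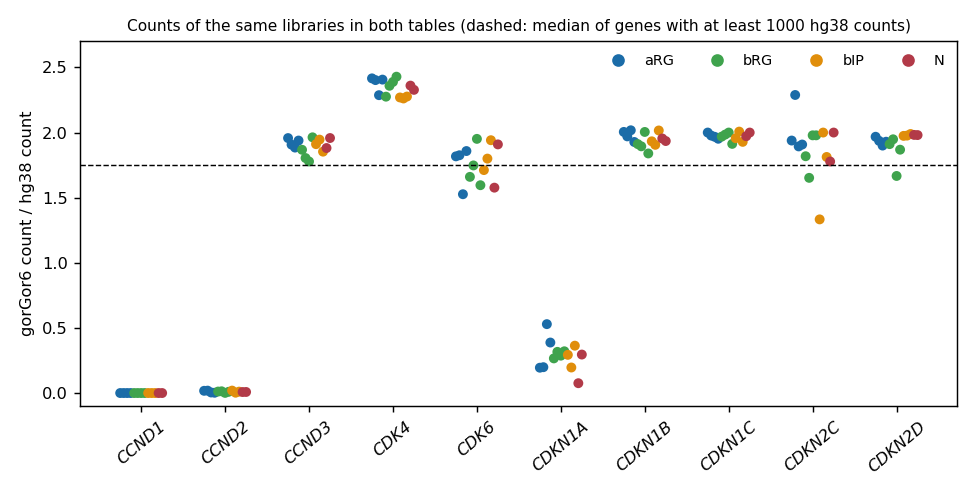
Count in the gorGor6 table divided by the count in the hg38 table for each of the 10 genes (x axis) in each of the 13 libraries (points, coloured by population); the dashed line is the median over genes with at least 1000 hg38 counts. CCND1 and CCND2 lie at or near 0 and CDKN1A below the line in every library.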

How the data were processed

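Smart-seq2 libraries were amplified for 12 to 17 PCR cycles, per the labels' protocols. The authors deposited raw, unnormalized read counts by gene symbol in 2 tables. Per the submitters' processing notes STAR and hg38 were used in some role; gorGor6 is known from its table's name alone. Which annotation and counting program were used, and whether strand was, is not given in the sources used here. A gorGor6 row with no gene name (0.00346% to 0.00768% of counts) was left out. A neuron column with a number that no neuron label has was used as the unnumbered neuron library.

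Counts of the hg38 table were tested with edgeR 4.0.16 in R 4.3.3 (quasi-likelihood F-test, TMM, filterByExpr with a minimum count of 10, a mean per population, all 13 libraries). Adjusted p-values are Benjamini-Hochberg over 16804 genes, standard errors come from the F statistic, and 95% intervals use its degrees of freedom. Log2 CPM used a prior count of 2. The test was first run on simulated counts. These were drawn from the spread that edgeR itself had fitted, so that run cannot check its assumptions in these data. Alternatives were DESeq2 1.42.0, its size factors, no filter, gorGor6 counts, a block for replicate numbers, only the 2 populations compared, each library left out, and, added after the data were seen, library numbers as a term and limma 3.58.1 with quality weights. The 10 genes and the lists were chosen with earlier results of these data known. Named pathway genes were the 4 per list with the smallest p over the populations, unless said otherwise. No duplicates were found: pairs within a population had a chi-square of 11.1 to 98.0 for each degree of freedom. RefSeq gene models matched all 10 symbols and were used only for overlapping genes; no sequence or coordinate was used here.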

Additional observations from a re-analysis of the deposited data

Results flagged for a closer look

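Among the aRG and bRG libraries (4 each), 2 levels of the 10 genes stood far from their group by Dixon's ratio, the gap of an extreme library to its neighbour over the range of the group. CDKN1B in bRG library 3 had a ratio of 0.932, at 50.9 CPM where the other bRG libraries held 25.3 to 27.0 CPM. CDK6 in aRG library 2 had a ratio of 0.846, at 62.2 CPM where the other aRG libraries held 30.7 to 35.6 CPM. Both exceed the 95% critical value for 4 libraries, which chance passes in about 1 of 20 groups; 20 groups were examined.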

How the results depend on the processing

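Of the 60 values (10 genes in 6 comparisons), 19 were called. Of their 395 values under the alternatives, 358 stayed called, 37 were no longer called and 0 reversed; of 858 values of uncalled results, 17 became calls and 48 reversed. The calls of CDK6 in 4 comparisons, CDKN2C in bIP against aRG, CDKN1A in N against bRG, CDKN2D in bIP and N against bRG, and CCND1 in 3 comparisons (with no gorGor6 value) held in every alternative that gave one. Genes called in bRG against aRG went from 0 to 1 with DESeq2, the replicate block, library numbers as a term or without bRG library 3, and in N against bIP from 0 to 1 with DESeq2. With gorGor6 counts the calls went from 4 to 2 in bIP against aRG, from 5 to 2 in bIP against bRG, from 5 to 3 in N against bRG and from 6 to 3 among the 4 populations; CCND1 is listed at 0 there, and the cause for the others was not tested. With the replicate block, with library numbers as a term, or without the unnumbered neuron library, 3 genes were called in N against bRG and 3 in N against aRG; the first 2 of these fits leave that library out. Leaving out each library gave 0 to 1 calls in bRG against aRG, 3 to 5 in bIP against aRG, 4 to 5 in bIP against bRG, 0 in N against bIP, 3 to 5 in N against bRG, 2 (without N library 1) to 6 in N against aRG and 5 to 6 among the populations; without 1 of the 2 neuron libraries the other was assumed to vary like the other populations.

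The replicate numbers were not taken to pair libraries, and whether they do was not tested. Deviations of the 10 same-numbered pairs correlated at -0.0127 to 0.387, and those of other pairs at -0.28 to 0.212. All same-numbered pairs except aRG 3 with bRG 3 correlated positively, whereas other pairs went in both directions. The block ended the calls of CDKN2C in bIP against bRG (edgeR adjusted p = 0.0602) and N against aRG (0.0989), of CCND1 and CCND2 in N against bRG (0.154 and 0.161) and of CDKN2D in N against aRG (0.258), and called CDKN2D in bRG against aRG (0.0448). With the replicate block, values that were not calls reversed to -0.19 for CDKN1C in bIP against bRG, 0.20 for CCND1 in N against bIP, 0.11 for CDKN1B in N against bRG and 0.31 for CDKN1C in N against aRG. With library numbers as a term the first 3 were -0.238, 0.0751 and 0.0779. With gorGor6 counts, bRG against aRG reversed to -0.103 for CCND2 and -0.0882 for CDKN1A, and N against bIP to -0.16 for CCND2. With limma and quality weights, bRG against aRG reversed to -0.26 for CCND2, -0.0946 for CDK6 and -0.13 for CDKN1A, N against bIP to 0.0137 for CCND3 and N against bRG to 0.10 for CDKN1B. Without the filter, CCND3 in N against bIP was 0.0035. Leaving out single libraries took bRG against aRG across 0 for CCND2 (-0.20 to 0.31), CDK6 (-0.20 to 0.60) and CDKN1A (-0.0049 to 0.50), and bIP against aRG for CCND3 (-0.31 to 0.12). The same held in bIP against bRG for CDK4 (-0.0823 to 0.18) and CDKN1C (-0.29 to 0.53). It held in N against bIP for CCND1 (-0.313 to 0.093), CCND3 (-0.48 to 0.36), CDK4 (-0.095 to 0.637) and CDKN1B (-0.0316 to 0.491), and in N against bRG for CDK4 (-0.0661 to 0.666) and CDKN1B (-0.40 to 0.19). In N against aRG it held for CCND3 (-0.51 to 0.33), CDK4 (-0.61 to 0.12) and CDKN1C (-0.745 to 0.371). None of these reversed values had been called. Low counts limit CDKN2C, at 3 to 174 counts per library, and CDKN2D and CCND3 in bRG library 3.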
